A study of Arabidopsis thaliana with 30 samples.

Results

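Shoots of ethanol-pretreated Arabidopsis thaliana were compared with shoots of water-pretreated plants 7 days after the onset of drought (7 DAD), the last harvest of a series with harvests on 5 days from the onset on. The members were chosen by their labels, as the 3 libraries labelled ethanol and the 3 labelled water at this harvest, 6 of the 30 libraries of the series. The ethanol group came from pots that stood in 10 mM ethanol for 3 days before watering was stopped, and the water group from pots that stood in water over the same days. Plants of both groups were of the Col-0 genotype, had been raised on MS medium and then on ceramic granular soil, and had gone through the same drought, so neither group was a watered one. Whole shoots were taken for total RNA, and libraries were made with Lasy-Seq, a multiplexed RNA-seq method. How many plants made up a library is not stated. The p-values measure only the spread between libraries of the same group, estimated over all 30 libraries of the series.

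As background, drying soil raises abscisic acid (ABA), a hormone that closes stomata and reprogrammes leaf cells for water loss. ABA bound to its receptors blocks clade A PP2C phosphatases, which frees SnRK2 kinases to activate bZIP factors that bind ABA-responsive elements (ABRE) in the promoters of dehydrin and other late embryogenesis abundant (LEA) genes. DREB factors act beside this route through dehydration-responsive elements (DRE). Leaves under severe water loss also lower transcripts for photosynthesis, cell expansion and cell division, and raise those for protein and chlorophyll breakdown. Ethanol itself is made and removed in plants by alcohol dehydrogenase, and the study asked whether supplying it beforehand changes how plants take drought.

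The ethanol libraries at 7 DAD held 7942545, 8331053 and 10222701 counted reads, and the water libraries held 8301656, 6478701 and 9342394. Levels are given as CPM, a gene's count scaled to a common library total, in the order of replicates 1, 2 and 3. Libraries of the same group correlated at 0.959 to 0.974 in log2 CPM across genes, which are not independent replicates. Ethanol replicate 2 lay nearer to the water libraries than the other two did. It was the highest of the 3 ethanol libraries at 1766 of the 2751 genes called lower by 2-fold or more (64.2%), against 36% of all genes, and the lowest at 2351 of the 4203 genes called higher by 2-fold or more (55.9%), against 36.8% of all genes. Fold changes of named genes, and medians and counts of lists, that move by more than 1.5 times without this library are given both ways. Leaf mesophyll markers (RBCS1A, CAB2, RCA, CAB3) summed to 22040 to 25990 CPM in ethanol and 3032 to 4849 CPM in water. Of 6 root markers 5 were too low to test, and the sixth, PYK10, a beta-glucosidase, had 25.1, 43.5 and 45.5 CPM in ethanol and 13.9, 8.61 and 3.88 CPM in water (log2 fold change 2.12 ± 0.39). Of 11 seed markers 10 were too low to test, while the 7 floral organ markers summed to 237 to 302 CPM in ethanol and 99.9 to 223 CPM in water.

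Most genes tested differed between the groups at 7 DAD. Most stress and dehydration transcripts were lower in ethanol-pretreated shoots. Most transcripts of nuclear photosynthesis genes, glucosinolate synthesis, water channels and cell division were higher. Of 19249 genes tested, 11653 were called at an edgeR adjusted p under 0.1, which is 60.5%. Of these, 6152 were higher in ethanol (32%) and 5501 were lower (28.6%). The 3 ethanol and 3 water libraries did not overlap at 11472 genes (59.6%). With library totals in place of the scaled totals the split was 7316 higher and 4305 lower, and the median log2 fold change of all genes tested was 0.26, against 0.05 with the scaled totals. A change of at least 2-fold was shown by 4203 genes called higher (21.8%) and 2751 called lower (14.3%), and one of at least 8-fold by 726 called higher (3.77%) and 374 called lower (1.94%). Without ethanol replicate 2, 6158 genes were called higher and 5254 lower. The genes called higher held 55.7% of all scaled counts in ethanol and 17.9% in water, whereas those called lower held 27.1% in ethanol and 67.1% in water. In whole shoots, fewer cells of a type and less RNA per cell cannot be told apart. Log2 fold changes are ethanol minus water throughout.

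**Figure D1:**
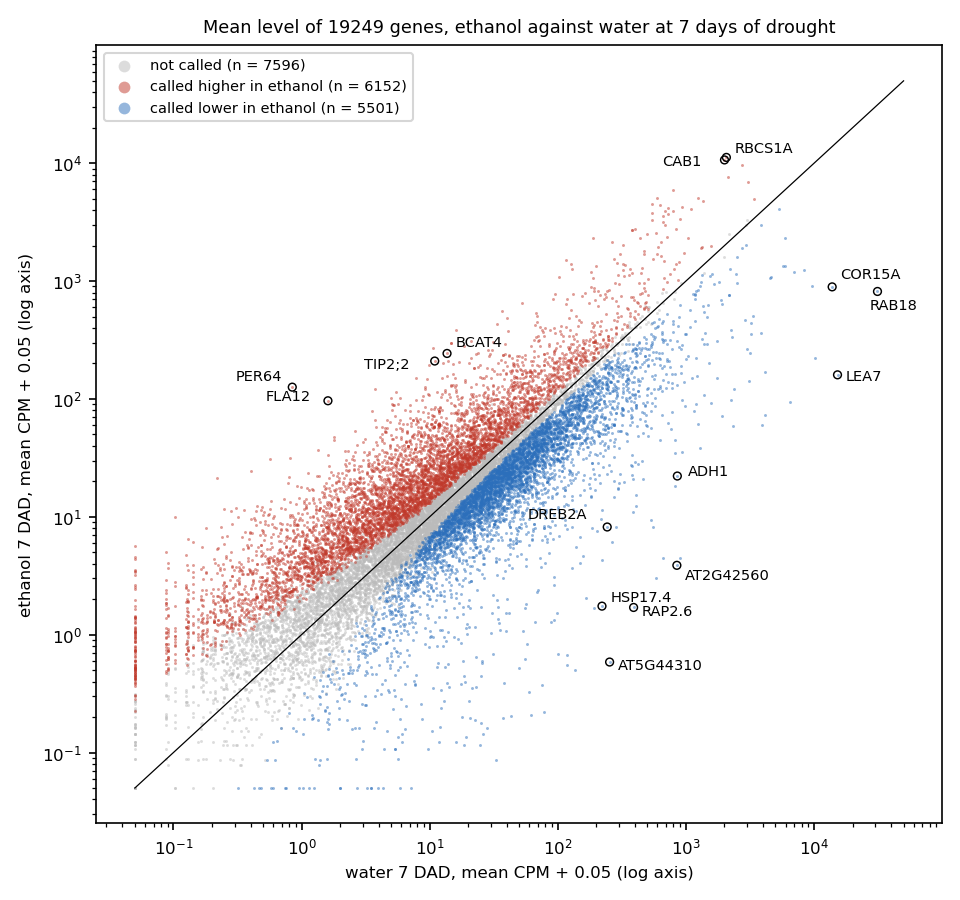
Mean level of each of the 19249 genes tested in the 3 ethanol libraries (vertical axis) and the 3 water libraries (horizontal axis) at 7 DAD, in CPM plus 0.05 on log axes; red points were called higher in ethanol (6152), blue points lower (5501) and grey points not called (7596). Named LEA, heat shock and stress factor genes lie far below the line of equal levels, and RBCS1A, CAB1, BCAT4, TIP2;2, PER64 and FLA12 lie above it.

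The 8 genes with the largest losses in CPM were all known or annotated as cold-, drought- or ABA-responsive. RAB18 (AT5G66400), a dehydrin that accumulates with ABA, had 238, 1937 and 275 CPM in ethanol, against 25960, 34930 and 32990 CPM in water. LEA7 (AT1G52690), a LEA protein, had 52.1, 379 and 49 CPM in ethanol, against 12670, 16700 and 16390 CPM in water. The highest ethanol library, replicate 2, stayed far below the lowest water library at both genes. The log2 fold change was -5.26 ± 0.57 (SE) for RAB18 and -6.58 ± 0.54 for LEA7, with edgeR adjusted p-values of 5.4e-09 and 3.2e-11. COR15A, which protects chloroplast membranes, had 629.6, 1287 and 763 CPM in ethanol and 12390, 13710 and 15470 CPM in water, a log2 fold change of -3.96 ± 0.25. The dehydrin LTI30 had 155, 364 and 151 CPM in ethanol and 7851, 12120 and 10440 CPM in water, a log2 fold change of -5.50 ± 0.29. The groups did not overlap at either gene. COR47 and ERD10, also dehydrins, and RCI2A, a small membrane protein, had log2 fold changes of -3.40, -2.55 and -2.73, and AT3G02480, annotated as a LEA family member, had -6.13. Without ethanol replicate 2 the log2 fold change was -6.91 for RAB18, -8.21 for LEA7, -7.75 for AT3G02480 and -3.33 for ERD10.

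The 8 genes described next had the lowest fold changes among called genes without overlap and with a mean of at least 20 CPM. AT5G44310, annotated as a LEA family protein, had 0.65, 0.785 and 0.172 CPM in ethanol, against 206, 238 and 317 CPM in water, and its log2 fold change was -8.92 ± 0.38 (edgeR adjusted p = 1.1e-16). RAP2.6, an ethylene response factor of stress responses, had 1.62, 2.47 and 0.862 CPM in ethanol and 172, 451 and 549.5 CPM in water, with a log2 fold change of -7.92. AT2G42560, annotated as a LEA domain protein, had 1.84, 6.62 and 3.02 CPM in ethanol and 544, 946 and 1061 CPM in water, with a log2 fold change of -7.81. All 3 were above 100 CPM in each water library and under 10 CPM in each ethanol library. The others were AT3G03620 (a MATE efflux protein, -8.42), AT1G04560 (an AWPM-19-like protein, -8.23), the metallothionein AtMT4a (-7.91), and the uncharacterized AT1G27461 (-8.75) and AT4G31830 (-7.83). AtMT4a was at -9.26 without ethanol replicate 3, and AT1G27461 at -9.46 without ethanol replicate 2.

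The promoters of 4 stress genes and of a light-harvesting gene are printed, as the stretches in which the ABRE and DRE letters described next were found. They are RefSeq sequences of the TAIR10.1 build, 5′ to 3′ on the strand of the gene, from 250 bases before the annotated start to 50 after it. Capitals mark the ABRE (ACGTGGC or ACGTGTC on either strand) and the DRE core (ACCGAC), and in LHCA4 also the G-box (CACGTG) and the I-box core (GATAAG). The genes were picked for print after the matches had been seen.
AT5G44310 promoter, chr5:17849487-17849786, minus strand: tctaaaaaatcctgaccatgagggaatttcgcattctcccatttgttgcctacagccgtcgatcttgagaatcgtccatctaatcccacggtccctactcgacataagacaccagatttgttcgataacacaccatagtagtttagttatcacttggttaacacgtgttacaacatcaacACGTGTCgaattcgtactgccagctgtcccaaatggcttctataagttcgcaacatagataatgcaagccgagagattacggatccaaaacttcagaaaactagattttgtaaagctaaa
RAB18 promoter, chr5:26519398-26519697, minus strand: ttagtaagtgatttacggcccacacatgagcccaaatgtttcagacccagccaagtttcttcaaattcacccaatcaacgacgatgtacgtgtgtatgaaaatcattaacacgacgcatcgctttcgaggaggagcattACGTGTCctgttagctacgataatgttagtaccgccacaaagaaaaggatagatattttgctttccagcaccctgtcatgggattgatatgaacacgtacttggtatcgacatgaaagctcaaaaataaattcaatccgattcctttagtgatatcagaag
LEA7 promoter, chr1:19619474-19619773, plus strand: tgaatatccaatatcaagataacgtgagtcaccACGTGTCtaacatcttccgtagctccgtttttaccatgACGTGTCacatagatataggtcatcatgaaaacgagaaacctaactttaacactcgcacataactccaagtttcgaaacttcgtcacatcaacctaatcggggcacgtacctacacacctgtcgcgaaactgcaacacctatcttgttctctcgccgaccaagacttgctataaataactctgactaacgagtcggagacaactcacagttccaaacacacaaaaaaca
LTI65 promoter, chr5:21236771-21237070, plus strand: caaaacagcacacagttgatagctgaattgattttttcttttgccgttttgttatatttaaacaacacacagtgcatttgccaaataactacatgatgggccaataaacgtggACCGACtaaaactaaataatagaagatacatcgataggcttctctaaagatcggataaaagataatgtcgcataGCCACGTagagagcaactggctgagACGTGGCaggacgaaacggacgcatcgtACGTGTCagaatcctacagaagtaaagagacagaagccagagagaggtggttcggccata
LHCA4 promoter, chr3:17494984-17495283, minus strand: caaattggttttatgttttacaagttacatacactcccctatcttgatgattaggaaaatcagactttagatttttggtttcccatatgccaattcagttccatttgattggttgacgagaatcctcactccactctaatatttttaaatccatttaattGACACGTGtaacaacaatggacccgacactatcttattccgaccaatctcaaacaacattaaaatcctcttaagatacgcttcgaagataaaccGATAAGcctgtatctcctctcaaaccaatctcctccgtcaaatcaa

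The ABRE letters, searched on both strands, were in 453 of 2729 promoters of genes called lower by 2-fold or more (16.6%), in 292 of 4173 of genes called higher by as much (7%), and in 9.32% of the 19069 promoters of all genes tested. The DRE core was in 9.05% of promoters of genes lower by 2-fold or more, 4.98% of those higher and 6.4% of all. The G-box, which shares letters with the ABRE and occurred with it in 999 promoters, was in 15.2%, 7.57% and 9.26% of the same sets. These shares are descriptions of letters within 300 bases, and a match is not a shown binding site. Among 22 LEA and dehydrin promoters, 14 held an ABRE and 7 a DRE core. Promoters of the 52 nuclear light-harvesting and photosystem genes held an ABRE in 21 cases, although these genes were higher in ethanol, and the I-box core in 22. None of 18 aliphatic glucosinolate promoters and none of 37 proteasome promoters held the ABRE letters in this window. The telo box (AAACCCTA) and the site II core (TGGGCC) were in 104 and 160 of the 285 ribosomal protein promoters, against 5.39% and 18.9% of all, and the evening element (AAAATATCT) was in 3.63% of promoters of genes lower by 2-fold or more and in 3.08% of all.

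**Figure D2:**
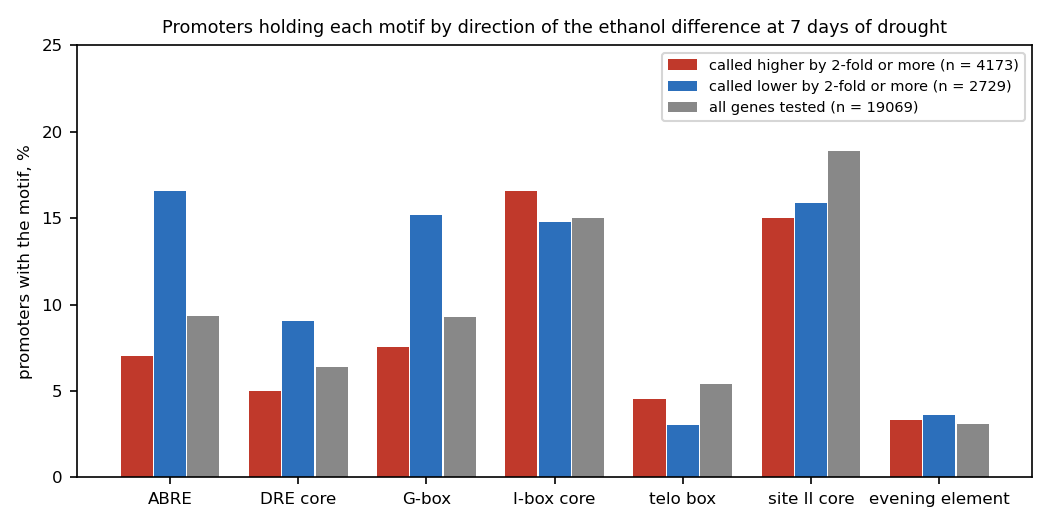
Share of promoters, in %, that hold each of 7 motifs on either strand within 250 bases before to 50 after the annotated start; red bars are genes called higher in ethanol by 2-fold or more (4173 promoters), blue bars genes called lower by as much (2729) and grey bars all genes tested (19069). The ABRE and G-box bars of the lower genes stand above those of the higher genes (16.6% against 7% for the ABRE), while the I-box, site II and evening element bars lie close together.

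LEA proteins and dehydrins, hydrophilic proteins that stabilise membranes and enzymes in drying cells, were lower in ethanol in 20 of 22 members, 1 was higher and 1 was not called. Their median log2 fold change was -4.35, beside 0.05 for all genes tested, or -6.05 without ethanol replicate 2. The member called higher was COR15B, a chloroplast protein close to COR15A, with 115, 126 and 127 CPM in ethanol and 38.4, 42.8 and 40.4 CPM in water, a log2 fold change of 1.60 ± 0.20. EM1, a LEA protein abundant in seeds, had 0.217, 3.7 and 0.517 CPM in ethanol and 90.3, 92.7 and 114 CPM in water, with a log2 fold change of -6.11, or -7.94 without ethanol replicate 2. The seed storage marker PAP85 (vicilin) had 0.217, 0 and 0 CPM in ethanol and 4.8, 6.54 and 24.3 CPM in water. Of 14 other drought markers, 12 were lower and 2 were not called. LTI78 (RD29A), a reporter of both ABRE and DRE routes, had 288, 743 and 287 CPM in ethanol and 2889, 3754 and 2970 CPM in water. LTI65 (RD29B), a reporter of the ABRE route, had 15.3, 335 and 14.9 CPM in ethanol and 2288, 2598 and 2231 CPM in water. Ethanol replicate 2 stood far above the other ethanol libraries at LTI65, yet no ethanol library reached a water library at either gene. The log2 fold change was -2.87 ± 0.32 for LTI78 and -4.29 ± 0.70 for LTI65, or -3.45 and -7.27 without that library. KIN1, a small cold- and ABA-induced protein with a near-identical copy in the genome, and DI21, a drought-induced protein, were at -4.75 and -4.34, and LTP3, a lipid transfer protein, at -1.35.

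The genes of ABA synthesis did not move as one. NCED3, the dioxygenase of the rate-limiting step, had 11.5, 62.3 and 11.6 CPM in ethanol and 196, 218 and 142 CPM in water, a log2 fold change of -2.71 ± 0.39 (edgeR adjusted p = 9.7e-07), or -3.98 without ethanol replicate 2. AAO3, the aldehyde oxidase of the last step, had 11.3, 14.2 and 7.07 CPM in ethanol and 65.4, 88.7 and 88.9 CPM in water, with a log2 fold change of -2.90, and ABA1 (zeaxanthin epoxidase) was at -0.39. BGLU18, which frees ABA from its glucose ester, and ABA2, a dehydrogenase of the pathway, were higher, with log2 fold changes of 1.64 and 0.50. In all, 4 of 6 tested genes were lower and 2 were higher. Of the 4 hydroxylases that break ABA down, CYP707A1 (-3.53) and CYP707A4 (-1.39) were lower and the other two were higher. CYP707A3, at 1.26, was not called without water replicate 2 or ethanol replicate 3, with log2 fold changes of 1.07 and 0.85. Of 10 ABA receptors, 3 were higher, 2 lower and 5 not called, shares not above the 32% higher and 28.6% lower over all genes tested. The count lower was 1 without ethanol replicate 2 or water replicate 2 or 3. RCAR3, PYL4 and PYL1 were higher at 1.68, 1.55 and 1.38, and PYL7 was lower at -1.26. PYL3, under 3 CPM in every library, was at -2.73, with a range of -3.68 to -2.10 on leaving out single libraries, and was not called without ethanol replicate 2 or 3 or water replicate 2 or 3.

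All 9 clade A PP2C phosphatases tested, which hold ABA signalling in check and are themselves ABA-induced, were called lower by 2-fold or more, with a median log2 fold change of -2.24, or -3.19 without ethanol replicate 2. HAI1 had 25.9, 397 and 24.3 CPM in ethanol and 972, 1109 and 1250 CPM in water. PP2CA had 233, 588 and 241 CPM in ethanol and 1018, 973 and 961 CPM in water. Ethanol replicate 2 was again the highest ethanol library at both, and the groups did not overlap. HAI1 had a log2 fold change of -2.90 ± 0.58, or -5.44 without ethanol replicate 2, and PP2CA one of -1.48 ± 0.23. HAI3 and AHG1 were at under 1 CPM in every ethanol library, with 27.2, 21.2 and 30.2 CPM in water for HAI3 and 14, 28.4 and 26.4 CPM for AHG1. Their log2 fold changes were -7.85 and -6.17, or -8.54 for HAI3 without ethanol replicate 3 and -7.68 for AHG1 without ethanol replicate 1. Of 8 ABA kinases and bZIP factors, 5 were lower and 3 were not called, and with library totals 1 of them was called higher. ABF2 (AREB1), a bZIP factor that binds the ABRE, was at -1.88, or -2.84 without ethanol replicate 2. The kinase OST1, which acts in stomatal closure, and the bZIP factor ABI5 were at -1.42 and -1.92.

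Most stress transcription factors were lower too, among them 4 of 7 DREB and stress HD-Zip factors, while 2 of these were higher. DREB2A, a dehydration- and heat-induced activator, had 3.47, 16.5 and 4.48 CPM in ethanol and 179.9, 278 and 272 CPM in water, a log2 fold change of -4.92 ± 0.43 (edgeR adjusted p = 9.0e-11). DREB2B was at -3.02. The cold-response factors CBF1 and CBF2 were higher, at 2.05 and 1.85, with levels under 10 CPM in every library. HB-7 (AT2G46680), an ABA-induced HD-Zip factor, had 151, 578 and 144 CPM in ethanol and 1328, 1187 and 1608 CPM in water, with a log2 fold change of -2.24. Of 14 stress and senescence NAC factors, 9 were lower, 2 were higher and 3 were not called. The count higher was 1 without ethanol replicate 1 or without any one of the water libraries. RD26 had 71.4, 264 and 76.7 CPM in ethanol and 682, 864 and 806 CPM in water, and NAC032 had 5.31, 45 and 7.67 CPM in ethanol and 271, 327 and 307 CPM in water. Both were highest in replicate 2 among the ethanol libraries, without overlap between the groups. Their log2 fold changes were -2.51 and -3.98, and ATAF1 was at -2.52. NAC083 was higher at 0.39. Without ethanol replicate 2 the log2 fold changes were -5.89 for DREB2A, -3.20 for HB-7, -3.38 for RD26 and -5.50 for NAC032.

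Heat shock factors and chaperones, which refold damaged proteins, were lower in 13 of 14 members tested, with a median log2 fold change of -2.54, or -3.57 without ethanol replicate 2, and no member called higher. HSP70 (AT3G12580) had 18, 69.3 and 18.1 CPM in ethanol and 802, 1160 and 859 CPM in water. HSP17.4, a small heat shock protein, had 0.542, 4.38 and 0.172 CPM in ethanol and 193, 232 and 239 CPM in water. Each water library was above 100 CPM at both genes, and no ethanol library was. The log2 fold changes were -4.75 ± 0.35 for HSP70 and -7.10 ± 0.54 for HSP17.4, or -5.68 and -9.27 without ethanol replicate 2, and HSP17.4 was at -6.48 without ethanol replicate 3. ATHSP22.0, of the endoplasmic reticulum, was at -7.23, or -8.46 without ethanol replicate 1. In the wider family chosen by product name, 14 of 21 heat shock proteins were lower and 3 were higher, or 5 higher with library totals. Those 3 were HSP60-2 (1.29), HSP60 (0.54) and HSP93-III (0.94), chaperones of mitochondria and chloroplasts. HSP60 was not called without water replicate 3 (0.37) or ethanol replicate 1 (0.41).

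**Figure D3:**
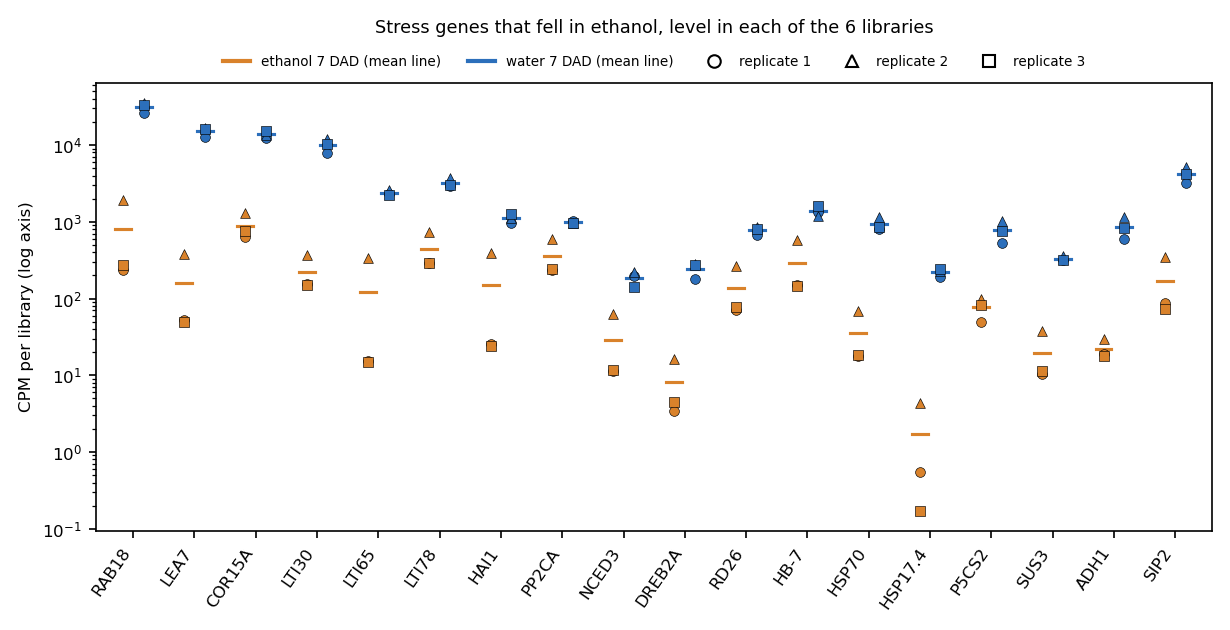
Level of 18 stress genes in each of the 6 libraries at 7 DAD, in CPM on a log axis, with ethanol in orange to the left of water in blue; circles, triangles and squares are replicates 1, 2 and 3 and short lines are group means. At every gene shown the 3 ethanol libraries lie below the 3 water libraries, and the ethanol triangle (replicate 2) is the highest ethanol point.

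Transcripts for breakdown of chlorophyll, proteins and amino acids were mostly lower in ethanol. Of 7 chlorophyll breakdown genes, 5 were lower and 1 was higher. ACD1, the oxygenase that opens the chlorophyll ring, had 118, 202 and 75.6 CPM in ethanol and 864, 771 and 932 CPM in water, and NYE1, which removes magnesium from chlorophyll, had 62.3, 103 and 42.6 CPM in ethanol and 240.2, 187 and 275 CPM in water. No ethanol library reached a water library at either gene. Their log2 fold changes were -2.70 ± 0.21 and -1.76 ± 0.31, and that of AT4G11910, annotated as NYE1-like, was -3.29. ACD2, the reductase that acts after ACD1, was higher at 1.17. ACD1 and ACD2 each overlap another gene on the same strand, and reads there counted for both genes. Of 12 senescence and dark-induced genes, 6 were lower, 2 were higher and 4 were not called. SAG29 (SWEET15), a sugar transporter of senescing leaves, was at -2.46, or -3.31 without ethanol replicate 2, while SRG1 and SAG13 were at -3.63 and -2.83. WRKY53, a factor that promotes leaf senescence, was higher, with 18.1, 21 and 10.2 CPM in ethanol and 1.44, 2.87 and 0.57 CPM in water, at 3.40, or 4.03 without water replicate 2, and SAG101, an immune regulator, was higher at 2.36.

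Of 13 autophagy genes, 12 were lower and 1 was not called, with a median log2 fold change of -1.07. ATG8H, an ATG8 protein that coats autophagosomes, had 28.5, 33.5 and 22.2 CPM in ethanol and 338, 402 and 536 CPM in water, a log2 fold change of -3.92 ± 0.25. Of 37 proteasome subunit genes, 32 were lower and none was called higher, or 1 with library totals, and the change was small, with a median of -0.69 and 6 genes lower by 2-fold or more. PAC1, a subunit of the core particle, had 124, 127 and 111 CPM in ethanol and 162, 173 and 175 CPM in water, and PA200, a proteasome activator, was lower at -1.43. Of 10 genes for branched-chain, lysine and methionine breakdown, 6 were lower and 1 was higher. AT4G33150, which encodes the lysine-ketoglutarate reductase and saccharopine dehydrogenase that start lysine breakdown, had 61.5, 169.7 and 47 CPM in ethanol and 1304, 1604 and 1819 CPM in water. Its log2 fold change was -4.09 ± 0.36, or -4.84 without ethanol replicate 2. MGL, a methionine lyase, and IVD, of leucine breakdown, were at -2.09 and -1.75.

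Proline, which accumulates as an osmoprotectant, is made by P5CS enzymes. P5CS1 had 279.5, 1334 and 444 CPM in ethanol and 2117, 1605 and 1906 CPM in water, and P5CS2 had 49.7, 99 and 82.5 CPM in ethanol and 536, 1032 and 768 CPM in water. Ethanol replicate 2 came close to the lowest water library at P5CS1 but not at P5CS2. The log2 fold change was -1.45 ± 0.34 for P5CS1, or -2.35 without ethanol replicate 2, and -3.34 ± 0.21 for P5CS2. In all, 6 of 8 proline genes were lower and 1 was higher, the transporter PROT1 at 1.07. The 10 nitrogen assimilation genes were split, with 4 higher and 4 lower, beside 32% higher and 28.6% lower over all genes tested. Their median of -0.15 changed sign to 0.07 with library totals and without ethanol replicate 2. The nitrate reductase NIA2 was lower at -2.19 and the asparagine synthetase ASN1 at -1.62, whereas the glutamine synthetases GLN1;4 and GS2 were higher at 3.04 and 0.89.

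Carbohydrate genes moved in both directions within their lists. SIP2, a raffinose-hydrolysing galactosidase, had 86.8, 348 and 72.8 CPM in ethanol and 3205, 5134 and 4175 CPM in water, and the sucrose synthase SUS3 had 10.5, 37.4 and 11.3 CPM in ethanol and 320.2, 353 and 319.7 CPM in water. The groups did not overlap at either gene, and ethanol replicate 2 was the highest ethanol library. Their log2 fold changes were -4.63 ± 0.38 and -4.08 ± 0.40, or -5.68 and -4.90 without that library. Sucrose synthase SUS1 and the sugar transporter SWEET4 were also lower, at -3.39 and -3.79, while the transporter SUC1 and the vacuolar invertase ATBETAFRUCT4 were higher, at 2.08 and 1.11. Of 18 genes of sucrose metabolism and transport, 6 were higher and 7 lower, beside 32% higher and 28.6% lower over all genes tested. The median of -0.16 was 0.04 with library totals. Of 17 genes of raffinose and trehalose metabolism, 10 were lower and 5 higher. Among those higher, the galactinol synthase GolS3 and the class II trehalose phosphate synthase TPS5 were at 1.88 and 2.92.

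Starch genes leaned the other way by count of genes, but not by summed level. Of 16 starch breakdown genes, 11 were higher and 2 lower, and of 13 starch synthesis genes, 7 were higher and 2 lower. The breakdown genes summed to 943 to 1046 CPM in ethanol and 1610 to 2080 CPM in water. The synthesis genes summed to 660 to 811 CPM in ethanol and 712 to 831 CPM in water. DPE2, a glucanotransferase of the night-time route from maltose, had 85.5, 83 and 101 CPM in ethanol and 20.8, 16.3 and 13.8 CPM in water, a log2 fold change of 2.40 ± 0.14. BAM1 (AT3G23920), a stress-induced beta-amylase, had 139, 343 and 118 CPM in ethanol and 1212, 1688 and 1646 CPM in water, and moved against its list at -2.92 ± 0.25, or -3.53 without ethanol replicate 2. The large ADP-glucose pyrophosphorylase subunits were split, with APL1 of leaves higher at 1.29 and APL4 and APL3 lower at -3.41 and -0.92.

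ADH1, the alcohol dehydrogenase that interconverts ethanol and acetaldehyde, had 19.2, 29.4 and 17.9 CPM in ethanol, against 604, 1139 and 828 CPM in water. The 3 ethanol libraries were alike, and each water library stood far above them. The log2 fold change was -5.28 ± 0.31 (edgeR adjusted p = 3.7e-14). The aldehyde dehydrogenase ALDH2B7 was at -1.93 and the peroxisomal citrate synthase CSY3 at -2.49. Over the 13 genes of ethanol and acetate metabolism and gluconeogenesis, 9 were lower and 2 were higher. Those 2 were PCK1, which encodes phosphoenolpyruvate carboxykinase (0.63), and PMDH2, peroxisomal malate dehydrogenase. PMDH2 had 1054, 1106 and 1123 CPM in ethanol and 417, 248 and 321 CPM in water, a log2 fold change of 1.74 ± 0.13.

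All 52 nuclear light-harvesting and photosystem genes tested were called higher in ethanol, 50 of them by 2-fold or more, with a median log2 fold change of 2.31, and the list summed to 117100 to 140500 CPM in ethanol, against 21440 to 38540 CPM in water. CAB1, a chlorophyll-binding antenna protein of photosystem II, had 9784, 11760 and 10460 CPM in ethanol and 2711, 1475 and 1817 CPM in water. LHCB3, another antenna protein, had 3886, 4707 and 4850 CPM in ethanol and 709, 451 and 484 CPM in water. LHCA4, an antenna protein of photosystem I, had 6536, 7928 and 8453 CPM in ethanol and 2737, 1533 and 2176 CPM in water. At all 3 genes the ethanol libraries were above the water libraries, and water replicate 1 was the highest water library. The log2 fold changes were 2.41 ± 0.18, 3.03 ± 0.16 and 1.83 ± 0.16. PnsL3, a subunit of the chloroplast NADH dehydrogenase-like complex, had the largest fold among the members above 5 CPM, at 4.04, followed by LHCB2.3 at 3.47. PSBR, which showed one of the 8 largest gains in CPM, was at 1.18, and LHCB5 and LHB1B2 were at 2.91 and 1.81. CAB1, CAB2, CAB3 and LHB1B2 have near-identical copies, so the share of reads of each is uncertain.

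Of 18 Calvin cycle genes, 17 were higher and 1 was not called, with a median of 1.99. RBCS1A, the small subunit of Rubisco, had 10640, 9534 and 13450 CPM in ethanol and 2450, 1607 and 2154 CPM in water. RBCS2B, another small subunit, had 1473, 1307 and 1787 CPM in ethanol and 118, 109.6 and 122 CPM in water. Each ethanol library was well above each water library. Their log2 fold changes were 2.44 ± 0.15 and 3.71 ± 0.13, and those of RBCS3B and RBCS1B were 3.09 and 3.60; RBCS1B, RBCS2B and RBCS3B are near-identical in sequence. Rubisco activase, RCA, was at 2.52. Of 16 chlorophyll synthesis genes, 15 were higher. CHLM, a methyltransferase of the magnesium branch, had 196, 164 and 261 CPM in ethanol and 43.7, 31.9 and 40.7 CPM in water, a log2 fold change of 2.41 ± 0.15, and the protochlorophyllide reductases PORA and POR C were at 2.44 and 2.32. Of 14 photorespiration genes, 12 were higher, among them AT1G11860, a glycine decarboxylase subunit (2.70), and HPR, hydroxypyruvate reductase (1.82). The one called lower was CAT2 (AT4G35090), a leaf catalase, at -0.59, and a second was without water replicate 1.

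Of 82 genes encoded in the chloroplast itself, 24 were called higher, 1 lower and 57 were not called, with a median log2 fold change of 0.37. Over all genes tested, 32% were higher and 28.6% lower. By 2-fold or more, 14.6% of the chloroplast genes were higher, against 21.8% of all, so they did not share the large rise of the nuclear photosynthesis lists. With library totals, 36 were higher and 1 lower, with a median of 0.59, and with upper-quartile factors 33 and 1. Their median at 5 DAD, where edgeR called no gene, was 0.53. At 7 DAD without ethanol replicate 3, 14 were higher and 4 lower. ATCG00440 had 4852, 5098 and 5039 CPM in ethanol and 3652, 3361 and 3157 CPM in water, and ATCG00650 had 46.3, 57.7 and 112 CPM in ethanol and 9.24, 13.7 and 9.46 CPM in water. The groups did not overlap at these genes, whose log2 fold changes were 0.56 and 2.75. The call of ATCG00020 as lower, at -0.85, rested on water replicate 3 and moved to -0.07 without it. Organelle transcripts mostly lack the long poly(A) tails of nuclear ones, and how fully these libraries captured them was not tested. Of 24 mitochondrion-encoded genes tested, 3 were higher and 5 lower, but 1 was higher without ethanol replicate 2 or without water replicate 1. Their median of 0.11 turned to -0.33 without ethanol replicate 2, -0.17 without ethanol replicate 1, -0.01 without water replicate 3 and -0.21 in a fit of the 7 DAD libraries alone. Of 285 genes tested whose product name holds ribosomal protein, 194 were higher and 18 lower, with a median of 0.55, and 10 were lower with library totals. A further 11 were annotated as plastid ribosomal proteins, and 7 of these were higher, such as PRPL11 at 1.77.

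**Figure D4:**
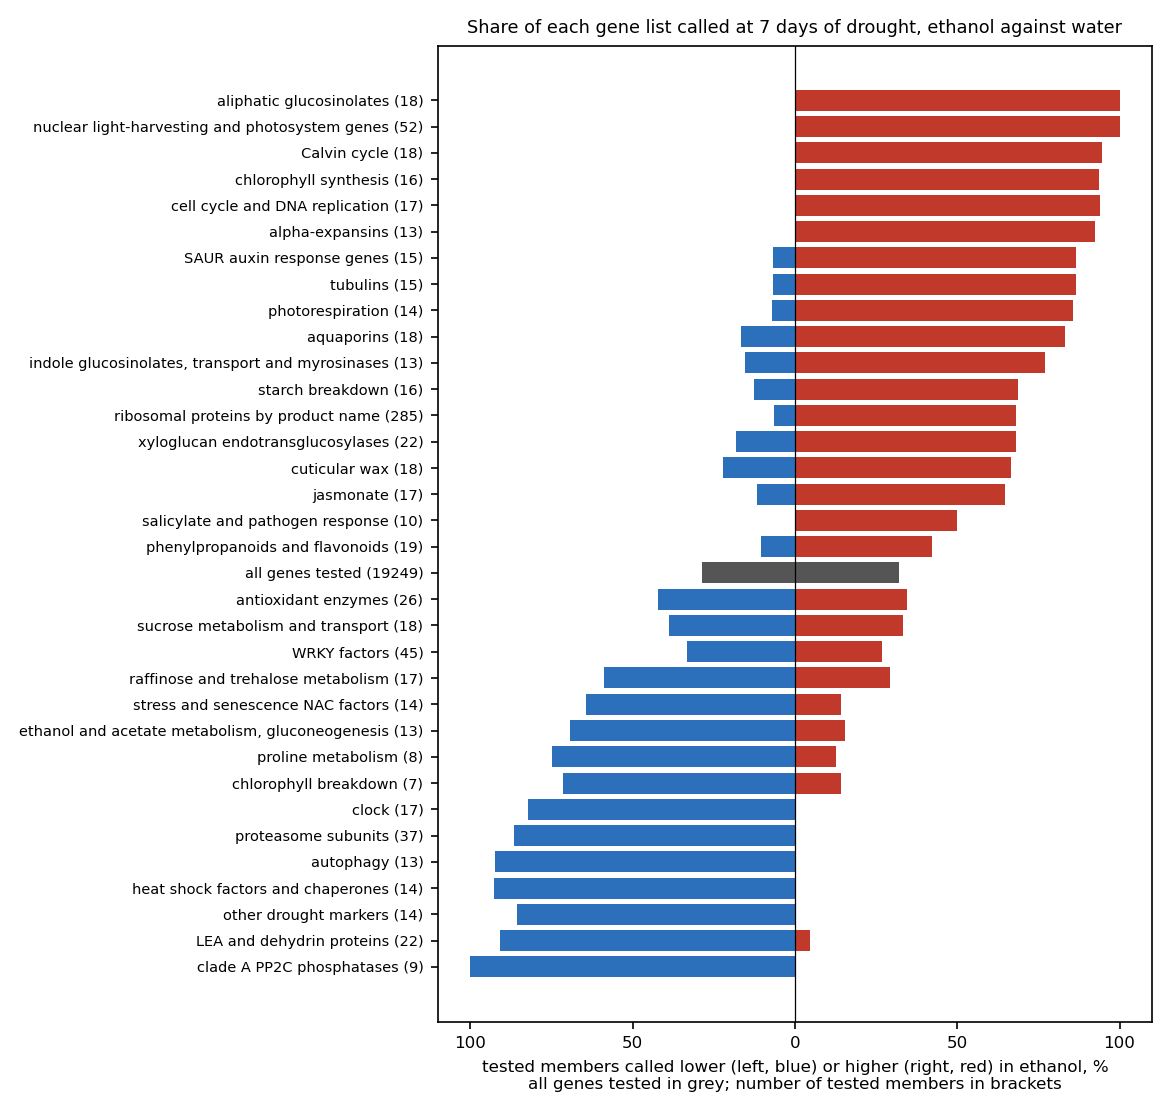
Share of the tested members of 33 gene lists called higher (red bars to the right) or lower (blue bars to the left) in ethanol at 7 DAD, in %, with the number tested in brackets and all 19249 genes tested in grey (32% higher, 28.6% lower). Aliphatic glucosinolate, photosystem and Calvin cycle genes stand at or near 100% higher, and PP2C, LEA, heat shock, autophagy, proteasome and clock genes lie almost wholly on the lower side.

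Aliphatic glucosinolates are methionine-derived defence compounds of the cabbage family. All 18 genes of their synthesis tested were called higher by 2-fold or more, with a median log2 fold change of 3.45. BCAT4, the aminotransferase of the first step, had 234, 228 and 269 CPM in ethanol and 19.2, 12 and 9.69 CPM in water. CYP83A1, which acts in the core structure pathway, had 283, 218 and 346 CPM in ethanol and 27.1, 16.1 and 12.1 CPM in water. The ethanol libraries stood well above the water libraries at both, without overlap. Their log2 fold changes were 4.16 ± 0.18 and 3.93 ± 0.19. IPMI1, of the chain elongation cycle, had 92.5, 59.5 and 121 CPM in ethanol and 7.8, 3.99 and 5.13 CPM in water. Of 13 genes of indole glucosinolates, transport and myrosinases, 10 were higher and 2 lower, and none was lower without ethanol replicate 2. CYP79B2, CYP79B3 and CYP83B1, enzymes from tryptophan onwards, were at 2.72, 3.02 and 2.69, whereas the myrosinase TGG1 had 486, 611 and 706 CPM in ethanol and 532, 502 and 514 CPM in water and was not called, except without ethanol replicate 1 (0.37). The transporter GTR1 was lower at -0.50, a call lost without water replicate 2 (-0.32) or ethanol replicate 2 (-0.37). The other gene called lower was MYB122, a factor of the indole branch, with 0, 0 and 0 CPM in ethanol and 0.24, 0 and 0.57 CPM in water. It was not called without any one of the ethanol libraries or without water replicate 3.

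Jasmonate, a hormone of wounding and defence, is made by the chloroplast enzymes LOX2, AOS and AOC. Of 17 jasmonate genes, 11 were higher and 2 lower. LOX2 had 261, 297 and 311 CPM in ethanol and 53.5, 31.6 and 31.5 CPM in water, and AOC1, which makes the cyclic precursor, had 76.8, 50.2 and 101 CPM in ethanol and 12, 9.09 and 7.75 CPM in water. MYC2, the bHLH factor of jasmonate responses that also acts in ABA signalling, had 106, 62.8 and 142 CPM in ethanol and 23.9, 19.1 and 22.2 CPM in water. Ethanol replicate 2 was the lowest ethanol library at MYC2, and the groups did not overlap at these genes. The log2 fold changes were 2.90 ± 0.29, 2.98 ± 0.38 and 2.25 ± 0.32. The repressor JAZ1 was lower at -1.45. So was CYP94B3, a jasmonate-inactivating hydroxylase, at -3.99, or -4.83 without ethanol replicate 2. Of 10 salicylate and pathogen response genes, 5 were higher and none lower, or 1 lower without ethanol replicate 1 or water replicate 3, among them WRKY70 with 189.6, 81.2 and 149 CPM in ethanol and 19.7, 25 and 12.2 CPM in water (2.90), and NPR1, a salicylate receptor (1.07). WRKY factors as a family were split, with 12 of 45 higher and 15 lower, near the 32% higher and 28.6% lower over all genes tested. Of 19 phenylpropanoid and flavonoid genes, 8 were higher and 2 lower, or 4 lower without water replicate 3. The flavonol synthase FLS1 and the factor PAP1 (AT1G56650) were higher at 2.74 and 2.45, while C4H, of the general phenylpropanoid route, and MYB90 were lower at -1.22 and -2.30.

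Aquaporins, the water channels of plasma and vacuolar membranes, were higher in 15 of 18 members and lower in 3. TIP2;2, of the vacuolar membrane, had 247, 184 and 199 CPM in ethanol and 12.8, 11.3 and 8.55 CPM in water. TIP2 (AT3G26520), also vacuolar, had 725, 579 and 1046 CPM in ethanol and 100.4, 78.8 and 105 CPM in water, and PIP1B, of the plasma membrane, had 1079, 1025 and 1005 CPM in ethanol and 513, 422 and 585 CPM in water. Each ethanol library exceeded each water library at these genes. The log2 fold changes were 4.27 ± 0.16, 3.04 ± 0.19 and 1.03 ± 0.12. PIP1;4 moved the other way, with 242, 377 and 239.5 CPM in ethanol and 885, 1013 and 879.9 CPM in water (-1.70), and so did PIP2E (-0.55) and PIP2;5 (-0.61), of which PIP2;5 was not called without water replicate 3 (-0.44). Of 12 stomatal movement genes, 7 were higher and 1 lower, or 2 lower without water replicate 1. The guard cell potassium channel KAT1, which carries inflow, was at 1.77, and GORK, which carries outflow, at -1.48. Of 7 stomatal development genes, 4 were higher and none lower, beside 32% higher and 28.6% lower over all genes tested. Levels were low, with the 7 genes summing to 19.1 to 26.1 CPM in ethanol and 7.5 to 11.6 CPM in water. The groups did not overlap at 3 of them, against 59.6% of all genes. Their median of 2.21 was 1.62 without water replicate 3. All 5 guard cell markers were called higher, but the groups overlapped at FMA (FAMA), at 0.85, and at OZS1 (SLAC1), at 0.64. OZS1 was not called without ethanol replicate 1 (0.45) or 3 (0.61) or water replicate 2 (0.72) or 3 (0.48).

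Of 18 cuticular wax genes, 12 were higher and 4 lower. CYP96A15, which makes wax alcohols and ketones, had 436, 234 and 235 CPM in ethanol and 24.4, 12 and 57.1 CPM in water, a log2 fold change of 3.26 ± 0.51, or 4.04 without water replicate 3. CER4, a fatty acyl reductase, was at 2.59, and the exporter ABCG12 was lower at -0.75. Of 10 genes of lipid droplets and phytol ester synthesis, 7 were lower and 2 higher, or 1 higher on leaving out any one library. RD20, a drought-induced caleosin, had 308, 946 and 271 CPM in ethanol and 3037, 2920 and 4103 CPM in water, a log2 fold change of -2.72 ± 0.29, or -3.51 without ethanol replicate 2. The antioxidant enzymes were split, with 9 of 26 higher and 11 lower, beside 32% higher and 28.6% lower over all genes tested. Their median of -0.13 was 0.07 with library totals and 0.06 without ethanol replicate 1. By 2-fold or more, 7 were higher and 3 lower, and the log2 fold changes of the list ran from -5.33 to 1.99. Among those higher were the chloroplast peroxiredoxin PRXQ and the catalase CAT3 (AT1G20620), at 1.99 and 1.14.

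Several genes of cell walls were among those with the highest fold changes. Of the called genes without overlap and with a mean of at least 20 CPM, the one with the highest fold change was PER64, a peroxidase known from lignification of the root endodermis, with 209, 79 and 89.5 CPM in ethanol and 0.84, 0.638 and 0.912 CPM in water, a log2 fold change of 7.25 ± 0.94 (edgeR adjusted p = 1.5e-07). FLA12, an arabinogalactan protein of secondary walls, had 149, 65.1 and 75.6 CPM in ethanol and 1.8, 0.479 and 2.39 CPM in water, a log2 fold change of 5.87 ± 0.51. EXPB3, a beta-expansin that loosens walls, had 125, 140.5 and 100 CPM in ethanol and 5.16, 2.71 and 3.19 CPM in water, a log2 fold change of 5.02 ± 0.26. Replicate 1 was well above the other ethanol libraries at PER64 and FLA12, but not at EXPB3. The root marker PYK10 was higher in ethanol as well (2.12), with 5 other root markers too low to test, and the part of root tissue in the PER64 difference was not tested. The other genes of highest fold change at that level were the nudix hydrolase NUDT24 (4.72, or 5.32 without water replicate 1), the E6-like AT1G03820 (4.71), the GDSL lipase AT5G33370 (4.67), the A/B barrel domain protein AT5G22580 (4.59) and the dehydrogenase family member AT5G37940 (4.45). AT5G33370 overlaps another gene on its strand, and AT5G37940 has a near-identical copy.

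Of 13 alpha-expansins tested, 12 were higher, and of 22 xyloglucan endotransglucosylases, which remodel wall xyloglucan, 15 were higher and 4 lower, or 2 lower without ethanol replicate 3 or water replicate 3. EXPA6 had 137, 109.9 and 194 CPM in ethanol and 13.2, 7.02 and 8.09 CPM in water, a log2 fold change of 3.95 ± 0.21. XTH24 had 526, 266 and 347 CPM in ethanol and 33.6, 25.4 and 63.8 CPM in water, a log2 fold change of 3.20 ± 0.32. XTH25 and XTH28 were lower, at -5.58 and -2.62. Cellulose synthases of the primary wall were higher in 5 of 6 members, such as CESA2 at 1.87. Of 7 genes of the secondary wall and lignin, all were higher, and 4 were without ethanol replicate 1 or without water replicate 2. IRX3, a secondary wall cellulose synthase, was at 1.87. Tubulins were higher in 13 of 15 members, with TUB5 at 3.02, and TUA1 was lower at -0.96. Of 17 genes of the cell cycle and DNA replication, 16 were higher and 1 was not called. PCNA1, the sliding clamp of replication, had 11.2, 7.86 and 11.1 CPM in ethanol and 2.64, 1.75 and 0.342 CPM in water, a log2 fold change of 2.69 ± 0.34, or 3.40 without water replicate 1. Of 42 histone genes, 24 were higher and 8 lower. HTA6, an H2A gene, was at 2.57, while HIS1-3, a drought-induced linker histone, had 249, 251 and 234 CPM in ethanol and 589, 643 and 729 CPM in water and was lower at -1.42. Floral organ markers, which mark young flower buds in a shoot, were higher in 5 of 7 members, such as AP1 (1.44) and SEP3 (1.25), and in 3 without ethanol replicate 1 or without water replicate 2. Their part in the wall and cell cycle differences was not tested.

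**Figure D5:**
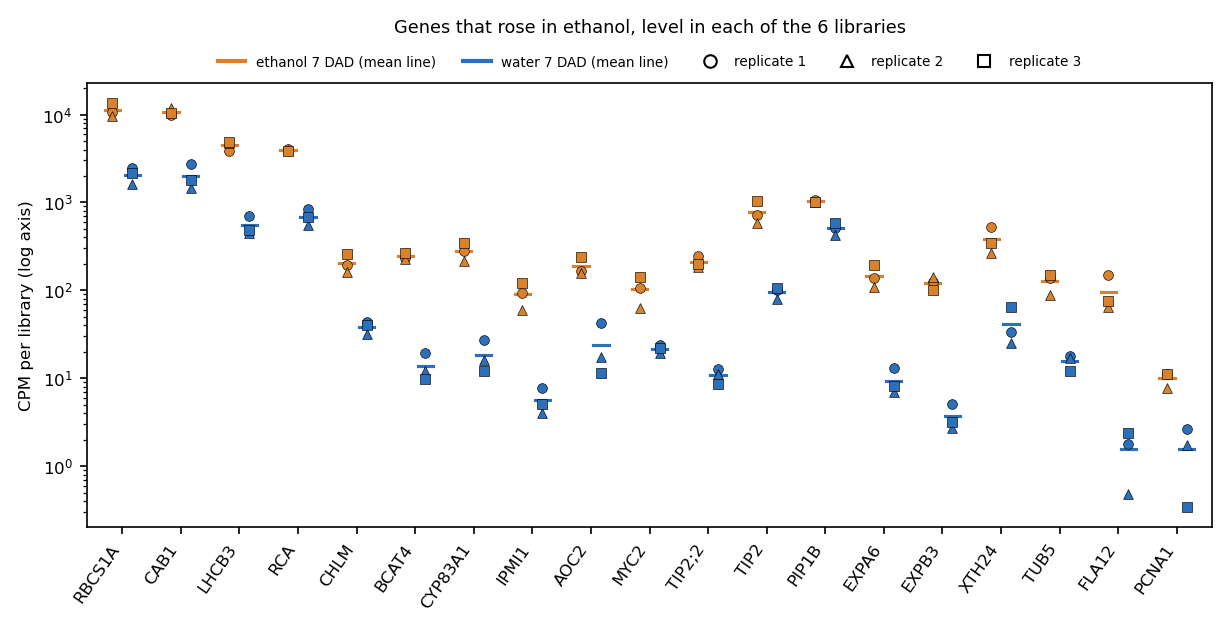
Level of 19 genes of photosynthesis, glucosinolates, jasmonate, water channels, walls and replication in each of the 6 libraries at 7 DAD, in CPM on a log axis, with ethanol in orange to the left of water in blue; circles, triangles and squares are replicates 1, 2 and 3 and short lines are group means. At every gene shown the 3 ethanol libraries lie above the 3 water libraries.

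Among hormone genes, the SAUR and type-A cytokinin response lists were mostly higher in ethanol, while the AUX/IAA and gibberellin lists were less one-sided. SAUR genes, which respond to auxin in expanding cells, were higher in 13 of 15 members and lower in 1, with a median log2 fold change of 3.36. SAUR20 had 13.2, 9.65 and 9.74 CPM in ethanol and 0.48, 0 and 0.912 CPM in water, a log2 fold change of 4.39, or 5.25 without water replicate 3, and SAUR36, which is linked to senescence, was lower at -2.06. AUX/IAA repressors were higher in 9 of 18 members and lower in 5, beside 32% higher and 28.6% lower over all genes tested. IAA19 was at 3.17 and IAA2 at -1.26. Type-A cytokinin response regulators were higher in 6 of 8 members, with none lower, or 1 lower without ethanol replicate 3, such as RR5 at 1.21. Of 6 gibberellin genes, 3 were higher and 1 lower, the GA 2-oxidases ATGA2OX1 and GA2OX6 standing at opposite ends, at 4.17, or 5.09 without water replicate 1, and -3.44. Cytochrome P450 genes were higher in 51 of 137 members and lower in 37, near the shares over all genes, with CYP76C2 at -5.46 among the lowest.

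Circadian clock genes were lower in 14 of 17 members, none was called higher, and their median was -1.11. RVE8, a morning-phased activator of evening genes, had 8.67, 18.9 and 12.7 CPM in ethanol and 40.2, 72.7 and 58.9 CPM in water, a log2 fold change of -2.10 ± 0.26. LCL1 (RVE4) had 105, 135 and 106 CPM in ethanol and 190, 218 and 244 CPM in water, a log2 fold change of -0.92 ± 0.16, and the cold-regulated COR27 and the photoreceptor FKF1 were at -3.23 and -2.52. The hour of harvest of each library is not given in the sources used here.

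Far fewer genes were called 2 days earlier. At 5 DAD no gene was called by edgeR, 783 of 19249 had an unadjusted p under 0.05, and DESeq2 called 13. Groups of 3 libraries can miss changes, so the lack of calls does not show equal levels. Median log2 fold changes at 5 DAD were -0.47 for LEA and dehydrin genes, -0.43 for other drought markers and -0.35 for clade A PP2C genes. That of heat shock factors and chaperones was 0.02. Single genes, none called by edgeR, lay on both sides, such as RAB18 (-1.51), LTI65 (-1.41) and COR15B (0.12). The ethanol effect at 7 DAD differed from that at 5 DAD at 9062 genes (47.1%), positively at 4962 (25.8%) and negatively at 4100 (21.3%), in a test of the difference itself in which the contrasts share no library. LEA7 averaged 52.3 CPM in ethanol and 89.1 CPM in water at 5 DAD, against 160.2 CPM in ethanol and 15250 CPM in water at 7 DAD, where its log2 fold change was -6.58, or -8.21 without ethanol replicate 2. ADH1 averaged 19.7 CPM in ethanol and 31.5 CPM in water at 5 DAD, and RBCS1A 14850 CPM in ethanol and 14750 CPM in water. Between 5 and 7 DAD the water means moved by far more than the ethanol means at these 3 genes, except that the ethanol mean of LEA7 was raised by replicate 2. This did not hold at every gene. PER64 averaged 5.56 CPM in ethanol and 12.8 CPM in water at 5 DAD, against 125.9 and 0.797 CPM at 7 DAD. IRX3 averaged 5.63 CPM in ethanol and 7.41 CPM in water at 5 DAD, against 44.5 and 12 CPM at 7 DAD. By list, the difference was called negative at 17 of 22 LEA and dehydrin genes, 9 of 9 clade A PP2C genes and 28 of 37 proteasome genes, and positive at 52 of 52 light-harvesting and photosystem genes and 18 of 18 aliphatic glucosinolate genes. The median log2 fold change of these lists at 5 DAD lay between -0.47 for LEA genes and 0.00 for photosystem genes.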

How the data were processed

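RNA-seq of whole shoots was taken as the deposited table of raw counts per gene, which the authors made with bcl2fastq, Trimmomatic, HISAT2 (TAIR10) and featureCounts. Per the study's methods, reads were counted by strand over whole genes, introns included, and a read could count for more than 1 gene. Of 27417 genes, 19249 passed filterByExpr and held 99.95% of the counts. The 30 libraries were fitted in 10 groups with edgeR 4.0.16 (R 4.3.3, TMM scaling, quasi-likelihood test), and genes with a Benjamini-Hochberg adjusted p under 0.1 were called, with 2-fold as a second limit. The SE of a log2 fold change was its size over the square root of F. The difference between 7 and 5 DAD was tested as a contrast of the same fit. Levels are CPM on TMM-scaled totals, which do not compare genes of different length.

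Gene names, families and promoters came from RefSeq TAIR10.1, to which 26720 of the 27417 IDs matched, while the counts had been made on TAIR10. Copies and overlaps were found with BLAST 2.17.0 and the annotation, and 987 tested genes share 100 or more bases at 95% identity or above with another. Lists were described by counts and medians, without set tests. Named genes were the 8 called genes highest and the 8 lowest in fold change, at a mean of 20 CPM or more, and the 8 with the largest gain and loss in CPM, all without overlap between the groups, 8 genes of the study's text, and in each list the 3 called members with the largest change at 5 CPM or more, the most abundant member and called members that went against the majority. The members and lists were chosen with earlier results of these data known. The main fit was also run on simulated counts with known changes. Of 50 changed genes at each size, it called 10 at 1.5-fold, 34 at 2-fold, 48 at 4-fold and 50 at 8-fold. It also called 24 unchanged genes. Only a small part of the genes was changed there, so the simulation could not test the scaling where most genes differ. Alternatives were other scalings, no filter, DESeq2 1.42.0, a stricter threshold, a replicate block, the 7 DAD libraries alone and leaving out each library. No library was left out of the main analysis.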

Additional observations from a re-analysis of the deposited data

Results flagged for a closer look

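The ethanol effect at 7 DAD differed from that at 5 DAD at 9062 of 19249 genes by the test of the difference itself (edgeR quasi-likelihood, Benjamini-Hochberg adjusted p under 0.1). Among the genes followed over both harvests, the difference of log2 fold changes, 7 minus 5 DAD, was -5.81 for LEA7, -4.61 for ADH1, -4.41 for DREB2A, -2.88 for LTI65, -2.40 for LTI78 and -1.96 for NCED3. It was positive at 2.06 for MYC2 and 1.76 for PMDH2. The edgeR adjusted p-values were 4.3e-08 for LEA7, 3.9e-10 for ADH1, 6.4e-07 for DREB2A, 0.012 for LTI65, 3.9e-05 for LTI78, 0.0047 for NCED3, 3.3e-04 for MYC2 and 8.7e-09 for PMDH2. Without ethanol replicate 2 at 7 DAD these differences were -7.44 for LEA7, -5.40 for DREB2A, -5.87 for LTI65, -2.99 for LTI78 and -3.23 for NCED3, and without ethanol replicate 1 at 5 DAD that of DREB2A was -3.76. Groups of 3 libraries are too small for a test of single outlying samples. The causes of these differences were not tested.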

How the results depend on the processing

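The 11653 genes called at 7 DAD numbered 11685 with DESeq2 size factors in the edgeR fit, 11621 with library totals, 11652 with upper-quartile factors, 11392 with no filter on low counts, 10482 in a fit of the 7 DAD libraries alone, 11666 with DESeq2 and 10530 at an adjusted p under 0.05. Leaving out each library in turn gave 10727 to 11426. The split moved with the scaling: library totals gave 7316 higher and 4305 lower, and upper-quartile factors gave 7031 higher and 4621 lower, with medians over all genes of 0.26 and 0.21, against 0.05 with TMM scaling. The medians of the nitrogen assimilation, sucrose, antioxidant and ABA breakdown lists, all near 0, changed sign with library totals. Whether same-numbered libraries were paired is not stated. At 7 DAD the deviations of same-numbered ethanol and water libraries from their group means correlated at -0.0392, 0.0453 and -0.081. With 3 libraries a group, these values can neither show nor exclude a pairing. With the replicate number as a block within each day, 11469 genes were called, 6049 higher and 5420 lower. The 9062 genes whose effect differed between 7 and 5 DAD numbered 8812 with that block and 8319 to 9138 on leaving out single libraries. No called change of the 355 genes that the naming rule gave turned direction under any alternative run, and leaving out single libraries took away 85 calls and added 3. Counts were too low to test 8168 of the 27417 genes.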
